A study of Caenorhabditis elegans with 66 samples.

Results

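SmY RNAs are small nuclear RNAs of nematodes that carry a binding site for Sm proteins and are found in particles linked to spliced leader trans-splicing, the joining of a short leader RNA to the start of many worm messenger RNAs. Genes of this kind are read by an RNA polymerase that is recruited through SNAPc, the small nuclear RNA activating protein complex, which binds a short element just upstream of the start of transcription. In Caenorhabditis elegans, SNPC-4 is related to the largest, DNA-binding subunit of the human complex, SNPC-1.1 and SNPC-1.2 are related forms of another subunit, and SNPC-4 also lies at piRNA genes, the germline small RNA genes that crowd chromosome IV. The genes described here are 6 SmY genes, taken by symbol (smy-1, smy-4, smy-6, smy-8, smy-9 and smy-10) out of 46926 genes annotated on the build WBcel235. All 6 symbols matched, and the same annotation names 12 SmY genes in all. The members smy-8, smy-9 and smy-10 lie in the larger piRNA cluster of chromosome IV and are called the cluster members, and smy-1, smy-4 and smy-6 are the other members.

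The study made chromatin immunoprecipitation sequencing (ChIP-seq) libraries with FLAG-tagged subunits, and the data used are the peak lists of 33 immunoprecipitated (IP) libraries in 11 groups of 3. In dataset 1, whole gravid adults at 72 h carried snpc-1.2::3xflag together with snpc-4::aid and Psun-1::tir1, carried snpc-1.2::3xflag alone, or were untagged N2. AID is a degron that lets the plant receptor TIR1 remove a protein when auxin is present. The sun-1 promoter drives TIR1 in the germline, so somatic SNPC-4 is not targeted in these whole worms, and no label states that auxin was added. In dataset 2, whole worms carried snpc-4::3xflag with snpc-1.2(-) or alone, or were N2, at 72 h, and carried snpc-4::3xflag with snpc-1.3(-) or alone, or were N2, at 48 h, the L4 stage. In dataset 3, germline nuclei of young adults at 56 h came from animals with tagged SNPC-1.1 or from N2, with replicates numbered 2, 3 and 4. One description of the dataset 3 N2 replicate 2 names SNPC-1.2, and its title was followed. In whole worms and in pooled nuclei, fewer nuclei with a subunit bound and less of it bound per nucleus cannot be told apart.

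Each list gives, for every peak, the fold of IP over input and a summit, the base of highest signal. A gene was given a peak where a summit lay within 200 bp of its span, and a peak's rank is its place by fold among all summits of its own list, with 1 the strongest. Lists differed in length. They held 67 to 281 peaks for SNPC-1.2 in the AID strain, 4791 to 9926 for SNPC-1.2, 14538 to 16732 in the 12 SNPC-4 lists, 1504 to 14912 for SNPC-1.1 and 2 to 4229 in N2. The sequencing depth behind them is unknown, since no reads were used. Ranks and folds are therefore read within a list, and no change is read from ranks in lists of different length. Whether the replicates came from separate cultures is not stated, so p-values measure only the spread between these lists. SmY genes resemble each other in sequence, and how reads that fit several copies were placed is not given in the sources used here.

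The cluster members form a tight group. The gene smy-8 lies at IV:13600847-13600925, smy-10 at IV:13601636-13601725 and smy-9 at IV:13602202-13602278, with lengths of 79, 90 and 77 bp. The gaps between them are 710 bp and 476 bp, and the 3 genes span 1432 bp. Within 50000 bp on either side, each has 135 annotated piRNA genes. The piRNA genes 21ur-3338 and 21ur-2046, 21 bp each, lie wholly inside the span of smy-8, and 21ur-3398 lies inside smy-10. A summit at smy-8 or smy-10 is thus also a summit at these piRNA genes. The span of smy-9 is shared with no annotated gene, its nearest neighbours being 21ur-8789 at 185 bp and the protein-coding gene Y45F10B.59 at 340 bp. Near smy-8, 21ur-11676 lies at 29 bp and the pseudogene Y45F10B.17 at 410 bp.

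The other members lie in piRNA-poor sequence, each within the span of a protein-coding gene. The gene smy-1 lies at IV:9511763-9511839 (77 bp) inside C33A12.3, 296 bp from smy-2, and has 12 piRNA genes within 50000 bp. On chromosome V, smy-4 lies at V:14094619-14094699 (81 bp) inside D1086.8 and smy-6 at V:14097435-14097517 (83 bp) inside D1086.2. These 2 genes stand 2735 bp apart and have 1 piRNA gene each within 50000 bp, and D1086.8 ends 319 bp from smy-6. The annotation used here gives neither strands nor exons, so sides are named by coordinate and exonic or intronic position was not analysed here.

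At 72 h, SNPC-1.2 had a peak at the cluster members in every list, whereas at the other members 1 peak was listed in all. A gene without a listed peak is not shown to be unbound. The rank of smy-8 was 63, 77 and 67 in replicates 1, 2 and 3, in lists of 9926, 8397 and 4791 peaks, with folds of 16.8, 14.8 and 12.0. The gene smy-9 ranked 59, 109 and 82 in the same lists, with folds of 17.6, 11.6 and 10.5. The gene smy-10 ranked 119, 95 and 86, with folds of 12.1, 12.6 and 10.4. All 9 of these ranks lie in the top 1.8% of their list. Among the other members, smy-1 had a peak in replicate 1 alone, with a fold of 4.49 and rank 4008 of 9926, and smy-4 and smy-6 had none in any list. In N2 of dataset 1 no member had a peak, in lists of 16, 2 and 2 peaks.

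A gene is called higher in a comparison when all 3 lists of the first group and no list of the second have its peak, and lower in the opposite case. By this rule 3 of 6 members, smy-8, smy-9 and smy-10, were higher in SNPC-1.2 than in N2, where 12.3% of all annotated genes and 20.3% of the 123 other snRNA genes were higher. The calls took in 3 of 3 cluster members and 0 of 3 other members. The N2 lists were so short that this call asks little beyond a peak in each SNPC-1.2 list.

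Among snRNA genes alone the cluster members stood near the head of the SNPC-1.2 lists. With 67, 51 and 31 snRNA genes having a peak in replicates 1, 2 and 3, smy-8 was number 3, 4 and 3, smy-9 number 2, 7 and 5, and smy-10 number 8, 6 and 6. In replicate 1, smy-1 was number 34. A place among piRNA genes went with a SNPC-1.2 peak in other snRNA genes too. Of 12 other snRNA genes with at least 100 piRNA genes within 50000 bp, 7 carried a peak in every SNPC-1.2 list and 0 had none, against 18 and 59 of the 111 with fewer. Their median place among snRNA genes with a SNPC-1.2 peak was 11.5, against 30 for the 111. A SNPC-4 peak showed such a contrast as well. In the SNPC-4 strain at 72 h, 11 of the 12 carried a peak in every list and 0 had none, against 80 and 29 of the 111. The median places there were 58 for the 12 and 49 for the 111. This split was chosen after the values were seen and was not tested, and genes near each other can share a listed region.

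**Figure D1:**
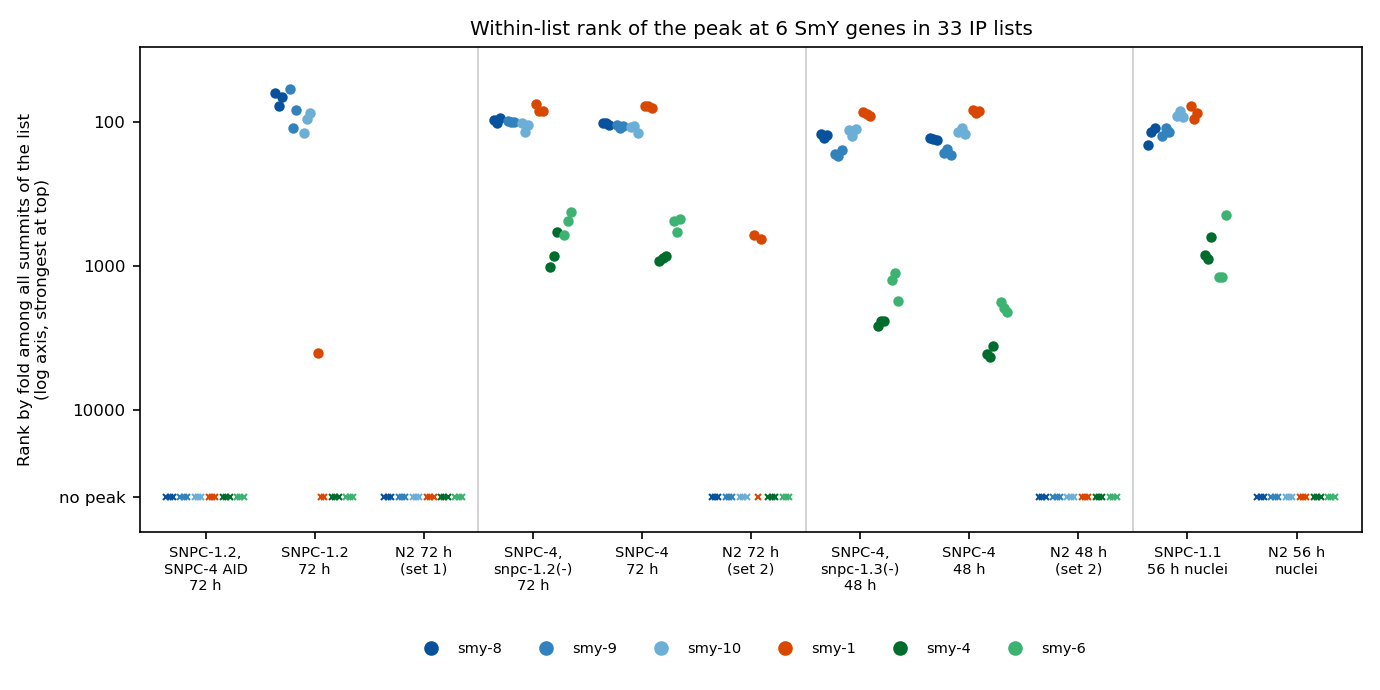
Rank by fold of the peak at each SmY gene among all summits of its list, on a log axis with rank 1 at the top; each point is 1 of 33 IP lists, crosses are lists without a peak, and vertical lines part the comparison sets. The SNPC-1.2 lists hold the cluster members (blues) at ranks 59 to 119 and none of smy-4 and smy-6 (greens), whereas the SNPC-4 and SNPC-1.1 lists hold all 6.

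The AID strain was set against worms with tagged SNPC-1.2 and no degron on SNPC-4. No member had a peak in any of the 3 AID lists, whereas smy-8, smy-9 and smy-10 had one in all 3 SNPC-1.2 lists. These 3 of 6 members were lower in the AID strain, where 11.9% of all genes and 18.7% of other snRNA genes were lower. With a window of 500 bp, or with overlap of the listed region, 4 members were lower. The added member was smy-1, which in SNPC-1.2 replicates 2 and 3 took in the peak of the neighbouring smy-2. That call is thus no peak of its own, and the share over all genes at these settings is not given here. The AID lists held only 281, 81 and 67 peaks. When every list of the comparison was shortened by q value to 67 peaks, 0 members were called, with smy-8 and smy-9 each left in 1 of 3 SNPC-1.2 lists and smy-10 in 0. At that length only 4 genes of 46926, 0.00852%, were lower. At equal length the members were therefore not called, and list length and the genotype cannot be told apart for them.

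SNPC-4 lists held a peak at all 6 members in 12 of 12 lists, whatever the age or genotype. The same lists held a peak at 29.7 to 33.8% of all genes and at 72.4 to 76.4% of other snRNA genes. At smy-1 the ranks were 75, 84 and 83 in snpc-1.2(-) worms and 77, 77 and 79 in the SNPC-4 strain at 72 h. They were 85, 88 and 90 in snpc-1.3(-) worms and 82, 86 and 84 in the SNPC-4 strain at 48 h. This was the best rank of any member in each of the 12 lists, with folds of 66.1 to 109.

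The cluster members came next. At smy-8 the ranks were 96, 101 and 93 in snpc-1.2(-) worms and 101, 101 and 105 in the SNPC-4 strain at 72 h, and 121, 129 and 123 in snpc-1.3(-) worms and 128, 130 and 133 in the SNPC-4 strain at 48 h. At smy-9 they were 98, 100 and 99 in snpc-1.2(-) worms and 104, 110 and 107 in the SNPC-4 strain at 72 h, against 167, 172 and 155 in snpc-1.3(-) worms and 164, 153 and 170 in the SNPC-4 strain at 48 h. The gene smy-10 ranked 101, 117 and 105 in snpc-1.2(-) worms and 108, 106 and 118 in the SNPC-4 strain at 72 h. At 48 h it ranked 113, 124 and 111 in snpc-1.3(-) worms and 117, 110 and 120 in the SNPC-4 strain. The ranks of the 3 genes overlapped over the 12 lists, and folds ran between 34.8 and 89.7.

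The genes smy-6 and smy-4 ranked far behind. At smy-6 the ranks were 607, 484 and 421 in snpc-1.2(-) worms and 482, 576 and 469 in the SNPC-4 strain at 72 h, and 1242, 1117 and 1757 in snpc-1.3(-) worms and 1776, 1942 and 2078 in the SNPC-4 strain at 48 h. The gene smy-4 ranked 1010, 853 and 579 in snpc-1.2(-) worms and 927, 878 and 849 in the SNPC-4 strain at 72 h. At 48 h it ranked 2594, 2395 and 2404 in snpc-1.3(-) worms and 4053, 4250 and 3571 in the SNPC-4 strain. In every list smy-6 stood above smy-4. Their folds ran from 7.35 to 19.9 for smy-6 and from 5.08 to 15.8 for smy-4, below every fold of the cluster members.

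Against N2, 5 of 6 members were higher in SNPC-4 at 72 h, where 22.9% of all genes and 38.2% of other snRNA genes were higher. None was lower, against 0.0149% of all genes. At 48 h 6 of 6 were higher, against 22.7% of all genes and 39% of other snRNA genes, and none was lower, against 0.0192% of all genes. The exception at 72 h was smy-1, which had a peak in N2 replicates 1 and 3. In N2 replicate 1 its fold was 2.35 and its rank 606 of 2236, with the summit 15 bp from the gene. In N2 replicate 3 the fold was 3.44 and the rank 644 of 4229, with a summit at −182 bp from smy-1, between the 2 genes, that was also the summit of smy-2. In the 3 SNPC-4 lists at 72 h the folds at smy-1 were 88.5, 74.0 and 97.1. No other member had a peak in any of the 12 N2 lists.

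Among the 95 to 100 snRNA genes with a peak in a SNPC-4 list, the members took middle and lower places. The gene smy-1 was number 34 to 38, the cluster members were number 41 to 59, smy-6 was 74 to 83 and smy-4 was 77 to 87. These places are out of more snRNA genes than in the SNPC-1.2 lists, so the places are not set against each other.

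**Figure D2:**
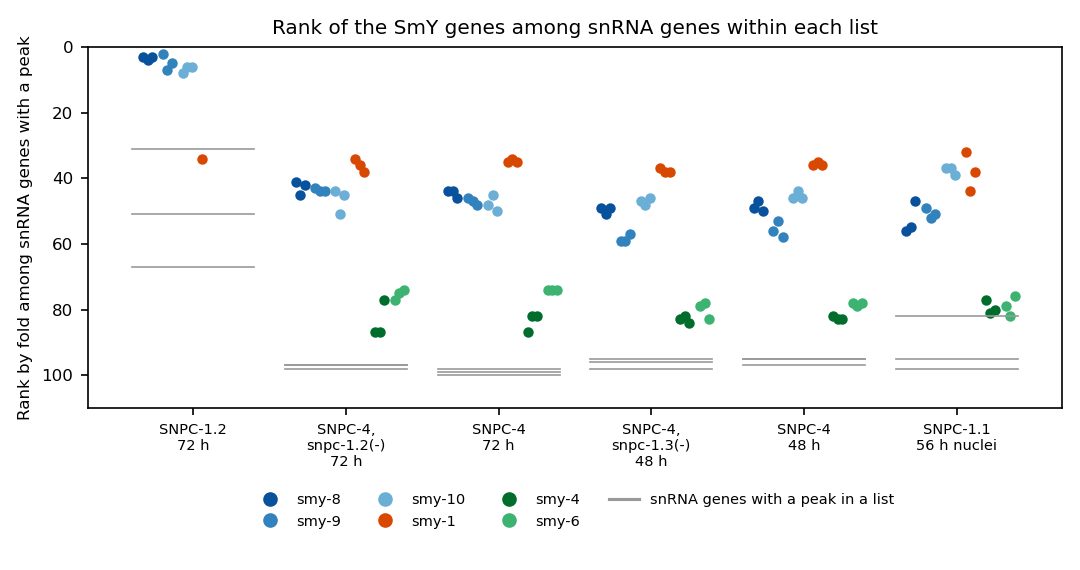
Place of each SmY gene by fold among the annotated snRNA genes that have a peak in the same list, with number 1 at the top; each point is 1 list and grey lines mark how many snRNA genes had a peak in each list. Cluster members hold places 2 to 8 of 31 to 67 in SNPC-1.2 lists and 41 to 59 of 95 to 100 in SNPC-4 lists, where smy-1 stands above them and smy-4 and smy-6 near the end.

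SNPC-1.1 in germline nuclei had a peak at all 6 members in 3 of 3 lists, of 14912, 1504 and 10238 peaks in replicates 2, 3 and 4. Those lists held a peak at 1.49 to 15.5% of all genes and at 61.8 to 74.8% of other snRNA genes. The gene smy-1 ranked 77, 95 and 86, and smy-10 ranked 91, 83 and 92. The gene smy-9 ranked 125, 109 and 117, and smy-8 ranked 143, 117 and 110. The remaining members ranked lower, smy-4 at 835, 894 and 626 and smy-6 at 1192, 1196 and 443. Replicate 3 stood apart by its short list and low folds, which were 7.63 at smy-10, 6.39 at smy-1, 5.82 at smy-9, 5.46 at smy-8, 1.87 at smy-4 and 1.72 at smy-6. In replicates 2 and 4 the folds were 68.7 and 56.2 at smy-10, 13.3 and 8.91 at smy-4 and 11.0 and 10.6 at smy-6.

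All 6 members were higher in SNPC-1.1 than in N2 nuclei, where 0.778% of all genes and 43.1% of other snRNA genes were higher. For smy-4 and smy-6 this rests on the weak peaks of replicate 3, and 5 members were higher with −log10 q of at least 2 and 4 with a fold of at least 3. The shares above do not apply at these stricter settings, for which none is given here. No member had a peak in N2 nuclei, in lists of 764, 1001 and 28 peaks. The members' places among the 82 to 98 snRNA genes with a peak were 32 to 44 for smy-1, 37 to 39 for smy-10, 47 to 56 for smy-8 and 49 to 52 for smy-9. For smy-4 they were 77 to 81 and for smy-6 76 to 82.

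The order of the members within a list was counted for each subunit. In 3 of 3 SNPC-1.2 lists every cluster member ranked before every other member. In 12 of 12 SNPC-4 lists and in replicates 2 and 4 of SNPC-1.1 the order was smy-1, then the cluster members, then smy-4 and smy-6. In SNPC-1.1 replicate 3 smy-10 stood before smy-1, and the rest of the order held.

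SNPC-1.2 and SNPC-4 at 72 h were compared directly, though they differ in dataset as well as subunit, and these cannot be told apart. Of 6 members, smy-4 and smy-6 were lower in SNPC-1.2, where 4.75% of all genes and 22.8% of other snRNA genes were lower. No member was higher in SNPC-1.2, against 0.586% of all genes. The cluster members had a peak in all 6 lists. Between SNPC-1.1 and SNPC-1.2, smy-4 and smy-6 were higher in SNPC-1.1, against 0.345% of all genes and 11.4% of other snRNA genes. That call rests on weak peaks in SNPC-1.1 replicate 3, with −log10 q of 3.08 at smy-4 and 1.94 at smy-6. With −log10 q of at least 2 in every list 1 member was called, and with a fold of at least 3 it was 0. Shares over all genes at these stricter settings are not given here. SNPC-1.1 also differs in tissue, age and dataset, which cannot be told apart from the subunit. Between SNPC-1.1 and SNPC-4 at 72 h no member was called, as all 6 had a peak in every list, against 0.0128% of all genes higher and 17.3% lower, and 0.813% of other snRNA genes lower.

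The null strains set SNPC-4 in worms without a related SNPC-1 form against SNPC-4 in worms that have it. Without snpc-1.2, at 72 h, 0 of 6 members were called in either direction, against 0.631% of all genes higher and 1.61% lower. Without snpc-1.3, at 48 h, 0 of 6 were called, against 0.275% higher and 0.175% lower. No other snRNA gene was called in either null strain. Between SNPC-4 at 72 h and 48 h, 0 of 6 were called, against 1.43% of all genes higher and 1% lower, and 0.813% of other snRNA genes higher.

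The summits lay at or just outside 1 end of each gene, always the same end. At the cluster members they lay on the lower-coordinate side. In the 12 SNPC-4 lists the summit stood 68 to 76 bp below the midpoint of smy-8, 84 to 99 bp below that of smy-9 and 80.5 to 88.5 bp below that of smy-10. At the other members the summits lay on the higher-coordinate side, 26 to 57 bp above the midpoint of smy-1, 71 to 82 bp above that of smy-4 and 81 to 95 bp above that of smy-6. The side was the same in every tagged list with a peak.

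**Figure D3:**
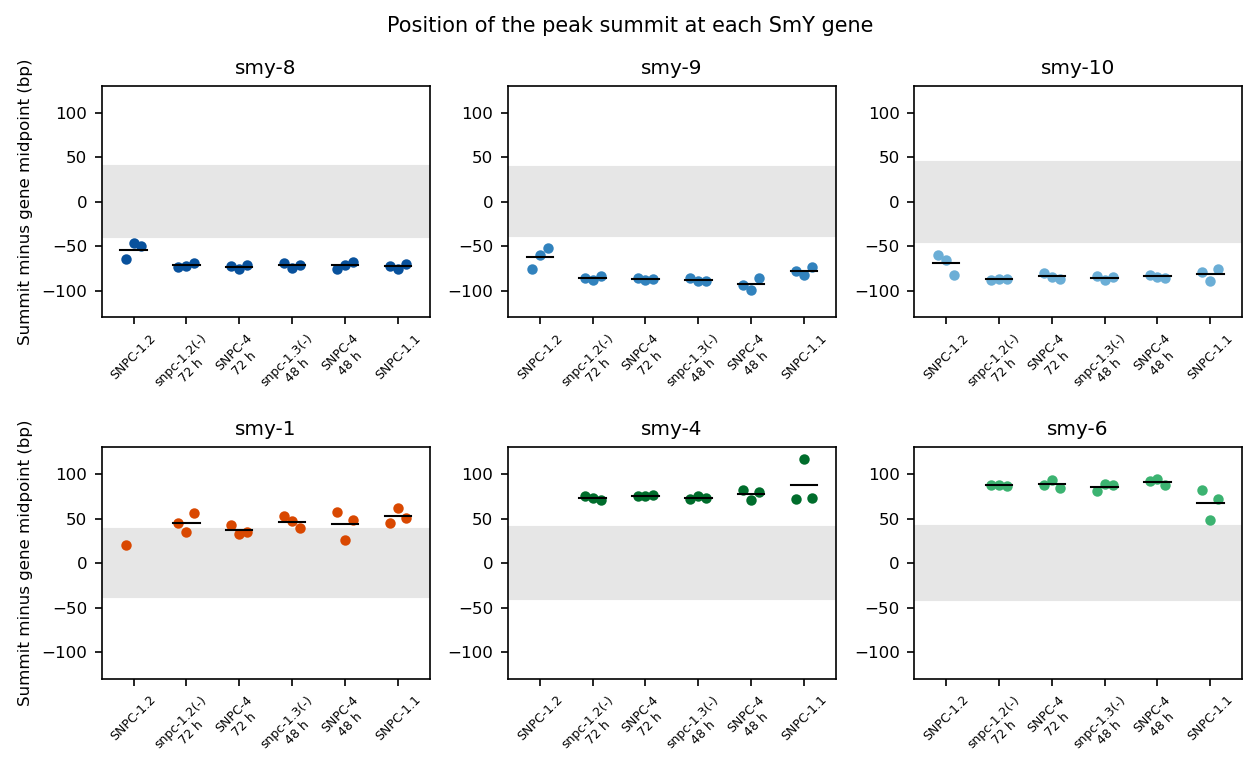
Summit position at each SmY gene as the distance in bp from the gene's midpoint, negative on the lower-coordinate side; points are lists of the tagged groups, short black lines are group means and the grey band is the gene's span. Summits of smy-8, smy-9 and smy-10 lie below the span and those of smy-4 and smy-6 above it, while smy-1 summits lie at its upper edge.

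Summit position has the same unit in every list, and was compared by an exact two-sided permutation test over lists, with Benjamini-Hochberg adjustment over all genes of up to 500 bp with a summit in every list. With 3 lists against 3 the smallest p is 0.1, so no single comparison of this size can pass 0.05. In the null strains no member's positions were separate. They were separate at 24.6% of 7544 genes without snpc-1.2 and at 13.1% of 8984 genes without snpc-1.3. Over both SNPC-4 strain pairs, 72 h against 48 h, no member was separate either, against 3.74% of 6926 genes. There the smallest exact permutation p of a member was 0.105, at smy-9, with an adjusted p of 0.506.

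Between SNPC-1.2 and SNPC-4 at 72 h the summits of the cluster members lay closer to the genes in SNPC-1.2. At smy-8 they stood at −54 ± 9.64 bp in SNPC-1.2 and −73 ± 2.65 bp in SNPC-4 (SD, n = 3 each, exact permutation p = 0.1, adjusted p = 0.467), with no overlap. At smy-9 they stood at −62.7 ± 12.2 bp in SNPC-1.2 and −87 ± 1 bp in SNPC-4 (exact permutation p = 0.1, adjusted p = 0.467), again with no overlap. At smy-10 they stood at −69.5 ± 11.5 bp in SNPC-1.2 and −84.2 ± 3.51 bp in SNPC-4 (exact permutation p = 0.2, adjusted p = 0.614), and the groups overlapped. Positions were separate at 21.4% of 4341 genes in this comparison. Between SNPC-1.1 and SNPC-4 at 72 h, positions were separate at smy-9, smy-1 and smy-6, by 9, 15.7 and −21.3 bp (exact permutation p = 0.1 and adjusted p = 0.234 each), against 42.8% of 362 genes.

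The listed regions joined neighbouring SmY genes. In 17 of 18 lists with peaks at all cluster members, smy-8, smy-10 and smy-9 lay in 1 listed region, each with a summit of its own. The exception was SNPC-1.1 replicate 3, which put smy-8 in a region of 499 bp and the other 2 in a region of 1049 bp. In SNPC-1.2 lists the shared region was 1901 to 29455 bp wide with 3 to 43 summits, and in the SNPC-4 strain at 72 h it was 22750 to 24188 bp wide with 29 to 31 summits. In snpc-1.2(-) worms at 72 h it was 6897 to 29335 bp wide with 7 to 40 summits. At 48 h it was 6982 to 7202 bp wide in snpc-1.3(-) worms and 6982 to 9805 bp wide in the SNPC-4 strain. The widths at the 2 ages thus overlapped between the null strains but not within the SNPC-4 strain. The regions at smy-6, with 1 summit each, were 535 to 747 bp wide in SNPC-4 lists. The genes smy-4 and smy-6 never shared a region, whereas smy-1 and smy-2 did in 18 of 18 lists with both.

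**Figure D4:**
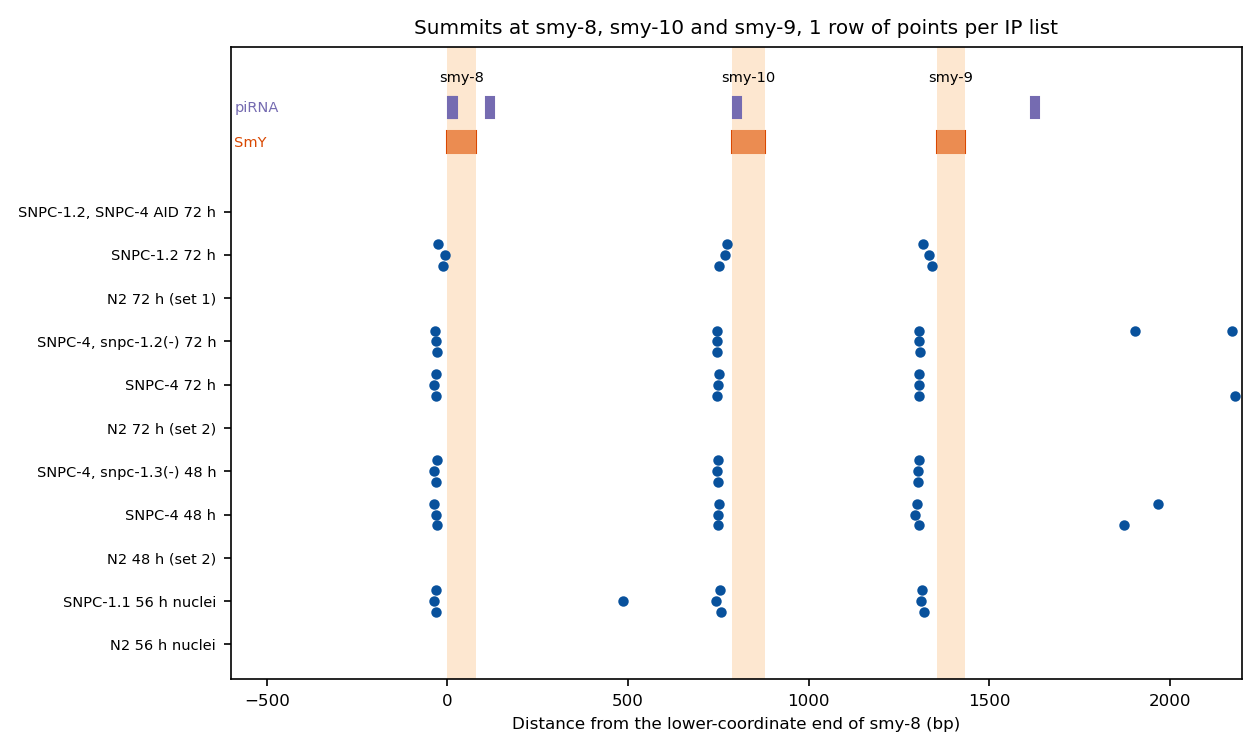
Summits around smy-8, smy-10 and smy-9, as distance in bp from the lower-coordinate end of smy-8; each row of points is 1 IP list, boxes at the top are the SmY genes and annotated piRNA genes. The 18 tagged lists with peaks place 1 summit just below each SmY gene, and the AID and N2 rows are empty.

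Ranks were also compared on a common footing, as the rank by fold among the short RNA genes (snRNA, tRNA, snoRNA and miRNA genes of up to 500 bp) that had a peak in every list compared. This measure was chosen after the lists had been examined. Over both SNPC-4 strain pairs 645 genes qualified, and 72 h was tested against 48 h with labels exchanged only within the null strains and within the control strain. The null strains differ in genotype between ages, so the ranks in the control strain, the SNPC-4 strain without a null allele, are given apart.

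The genes smy-8, smy-9 and smy-4 stood higher in the common ranking, with smaller rank numbers, at 72 h. At smy-8 the mean rank was 80.5 ± 3.08 at 72 h and 92.8 ± 1.72 at 48 h (SD, n = 6 each, exact permutation p = 0.005, adjusted p = 0.0164). In the control strain alone its ranks were 81, 81 and 85 at 72 h and 93, 93 and 95 at 48 h. At smy-9 the means were 82.9 ± 3.50 at 72 h and 108.5 ± 4.32 at 48 h (exact permutation p = 0.005, adjusted p = 0.0164), and the control strain ranked it 83.5, 87 and 87 at 72 h, against 111, 102 and 108 at 48 h. At smy-4 they were 213.9 ± 9.78 at 72 h and 275.5 ± 34.9 at 48 h, with the same p and adjusted p by exact permutation. This p is the smallest the test allows. The control strain ranked smy-4 225, 214.5 and 221.5 at 72 h, against 331, 292 and 282 at 48 h. None of these 3 genes had overlapping ages.

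The gene smy-6 also stood higher at 72 h, at 189.7 ± 4.23 at 72 h and 213.8 ± 15.6 at 48 h. So did smy-1 by a little, at 68.3 ± 2.16 at 72 h and 71.2 ± 1.83 at 48 h (exact permutation p = 0.01, adjusted p = 0.0277 each). Over both strain pairs their ages overlapped. In the control strain alone smy-6 ranked 184, 194 and 190 at 72 h, against 228, 211 and 224 at 48 h, with no overlap. There smy-1 ranked 68, 67 and 69 at 72 h, against 69, 70 and 70 at 48 h, with 1 rank shared. Both lost the call without 1 of 3 single lists, with adjusted p of up to 0.0987 for smy-1 and 0.0527 for smy-6. At smy-10 the ranks were 87 ± 5.83 at 72 h and 87.2 ± 2.04 at 48 h (exact permutation p = 1), and in the control strain 87, 84 and 95 at 72 h, against 87, 85 and 87 at 48 h. In all, 5 of 6 members passed an adjusted p of 0.05, each standing higher at 72 h, where 40.8% of the 645 genes passed and 19.4% passed in that direction. Ages did not overlap at 3 of 6 members, against 30.5% of the 645 genes.

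The order inside the cluster also differed between ages. The gene smy-8 stood above smy-10 in 6 of 6 SNPC-4 lists at 72 h and in 0 of 6 at 48 h, and smy-9 stood above smy-10 in 5 of 6 and 0 of 6. Of 4186 pairs among the 92 snRNA genes with a peak in all 12 lists, 97 pairs, 2.32%, switched fully in this way. The pair smy-8 and smy-10 was singled out after its values were seen.

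**Figure D5:**
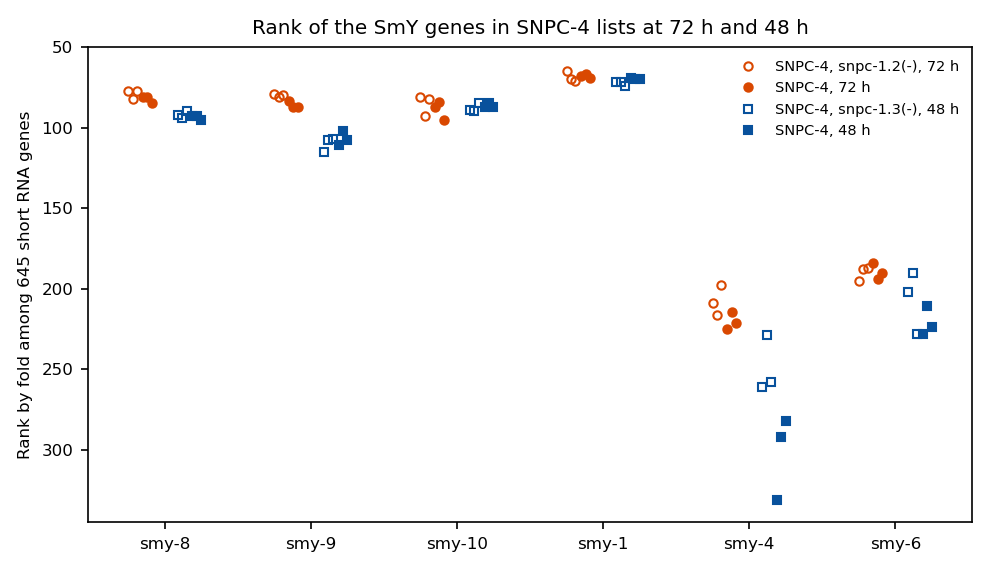
Rank of each SmY gene by fold among 645 short RNA genes with a peak in all 12 SNPC-4 lists, with the strongest at the top; circles are lists at 72 h, squares lists at 48 h, and open symbols are the null strains. The ages are apart at smy-8, smy-9 and smy-4, and overlap at smy-10, smy-1 and smy-6.

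On the same footing the null strains gave few separate members. Without snpc-1.2, smy-9 ranked 80 ± 1 against 85.8 ± 2.02 in the SNPC-4 strain at 72 h (SD, n = 3 each, exact permutation p = 0.1, adjusted p = 0.548), and 1 of 6 members was separate, against 18.2% of 674 genes. Without snpc-1.3, smy-4 ranked 249.3 ± 17.7, against 302.3 ± 26.3 in the SNPC-4 strain at 48 h, and smy-1 ranked 72.7 ± 1.15, against 69.7 ± 0.577 in the SNPC-4 strain (SD, n = 3 each, exact permutation p = 0.1, adjusted p = 0.635 each). These were 2 of 6 members, against 15.7% of 724 genes. Between SNPC-1.2 and SNPC-4 at 72 h, the 3 cluster members ranked 37.8, 41.7 and 46.3 on average for smy-8, smy-9 and smy-10 in SNPC-1.2 and 49.3, 51.5 and 53.3 in SNPC-4 among 144 genes. They were separate (exact permutation p = 0.1, adjusted p = 0.126 each), but so were 79.2% of the 144 genes. Between SNPC-1.1 and SNPC-4 at 72 h, 4 of 6 members were separate, against 31.4% of 159 genes. There smy-10 ranked 74.3 ± 3.06 in SNPC-1.1 and 88.3 ± 5.13 in SNPC-4, while smy-8 ranked 95.8 ± 7.01 in SNPC-1.1 and 82.3 ± 2.31 in SNPC-4. The gene smy-9 ranked 93.3 ± 2.52 in SNPC-1.1 and 85.8 ± 2.02 in SNPC-4, and smy-6 ranked 150.7 ± 4.16 and 144.3 ± 0.577 (exact permutation p = 0.1, adjusted p = 0.318 for each of the 4). Of these, only smy-10 stood higher in SNPC-1.1.

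The other RNA genes of trans-splicing were counted by the same rule, without a test of their difference from the members. Of the 6 SmY genes outside the list, 3 were higher in SNPC-1.2 than in N2, 4 in SNPC-4 at 72 h, 4 in SNPC-4 at 48 h and 5 in SNPC-1.1. Of the 12 SL1 genes, near-identical repeats that give the main spliced leader, 0 were higher in SNPC-1.2, 1 in SNPC-4 at 72 h, 0 in SNPC-4 at 48 h and 0 in SNPC-1.1. How reads that fit several of these repeats were placed is not given, so few peaks there do not show absence of binding. Of the 18 SL2 genes, whose leader is joined to downstream genes of operons, 7 were higher in SNPC-1.2, 2 in SNPC-4 at 72 h, 4 in SNPC-4 at 48 h and 10 in SNPC-1.1. The low SL2 counts for SNPC-4 stand beside N2 lists that themselves had a peak at 8 to 13 of the 18. Of the 89 remaining snRNA genes, 16 were higher in SNPC-1.2 and 40 in each of the other comparisons with N2. Over all annotated genes, 12.3% were higher in SNPC-1.2, 22.9% in SNPC-4 at 72 h, 22.7% in SNPC-4 at 48 h and 0.778% in SNPC-1.1.

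Proteins of the spliced leader and SmY particles are encoded by protein-coding genes that gave weak or no peaks. At sna-2, whose protein binds both kinds of RNA, all 12 SNPC-4 lists had a peak, with folds of 1.61 to 3.06, and 0 N2 and 0 SNPC-1.2 lists did. A peak was also listed there in 2 of 3 SNPC-1.1 lists, with folds of 1.68 and 2.22. Of all genes, 29.7 to 33.8% had a peak in a SNPC-4 list. At sna-1, whose protein belongs to the SL1 particle, 6 of 6 SNPC-4 lists at 72 h had one (folds 1.96 to 4.06) and 0 of 6 at 48 h. So did 2 of 3 SNPC-1.1 lists, 1 of 3 SNPC-1.2 lists and 1 of 6 N2 lists at 72 h, the last with a fold of 2.44. At sut-1, whose protein belongs to the SmY particle and which was added after the other lists, 1 SNPC-4 list at 72 h had a peak, with a fold of 1.73. At sut-2, which was listed before sut-1 and is not counted here among the particle proteins, no list had one.

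Other short RNA genes shared the pattern of the members over the 33 lists. Among 1363 candidate genes, 9 had a peak exactly in the 18 lists in which the cluster members had one. Closeness was measured as the mean absolute difference in percentile rank within the list from the median of the members compared. The closest was a snoRNA gene at IV:14780839-14780933, with a mean absolute difference of 0.206 points. The next were a snoRNA gene at IV:15649207-15649360 (1.28 points), smy-11 (1.39 points), a snoRNA gene at IV:16592791-16592943 (1.53 points) and the snoRNA gene C06E7.95 (3.07 points). All 5 lie on chromosome IV, though the share of all candidates on that chromosome is not given here. For the other members the majority pattern was used, that of smy-4 and smy-6 with peaks in 15 lists, which smy-1 did not match. A peak in exactly these 15 lists was found at 20 candidates. The closest were T27E4.11 (3.93 points), W07G1.23 (5.05), C27H5.11 (5.09), C02C6.13 (5.95) and W07G1.9 (6.51). None of these 5 lies on chromosome IV. Without the share of candidates there, the chromosomes of the closest genes are not read as a result.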

How the data were processed

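ChIP-seq peak lists of 33 IP libraries in 11 groups of 3 were used. Per the submitters' processing notes, peaks were called with MACS2 2.1.2, deepTools was used, and the build was WBcel235. The aligner and filters are not given in the sources used here. Each deposited list gives a fold, a ratio of IP over input, and a −log10 q value, both as the authors' caller wrote them. The deposited offset of the summit from the region start, another kind of value in bp, was added to the start to place each summit.

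Gene spans came from the RefSeq table of WBcel235, matched by symbol, which holds neither sequences nor strands. A gene of up to 500 bp had a peak where a summit lay within 200 bp, and a longer gene where it lay within 200 bp of either end. Of several summits the one with the highest fold was taken. Folds were not tested between lists. Permutation tests covered all 20 labellings of 3 against 3 lists, or 400 where labels were exchanged within 2 strain pairs (smallest p 0.005). Positions and ranks were tested over all qualifying genes and p-values were adjusted over all of them (Benjamini-Hochberg, threshold 0.05), with Python 3.11.15, numpy 2.4.6 and pandas 2.3.3. The steps were tested on simulated data. Alternatives were the window (100 and 500 bp), overlap with the listed region, stricter q and fold, shortened lists, left-out lists and replicate blocks.

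Besides the members, genes within 500 bp and, for each set of members, the 5 candidates closest in pattern were named. The members and lists were chosen with earlier results of these data known. The rank in a common set, the split by piRNA genes, the order of pairs and sut-1 were added after the data had been seen. Since no sequence was at hand, none is shown.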

Additional observations from a re-analysis of the deposited data

How the results depend on the processing

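Of 1108 values recomputed for 124 results, 1020 stayed on the same side of their threshold and near their main value. With a window of 500 bp or overlap of the listed region, higher calls of SNPC-1.2 over N2 became 4 in place of 3. Lower calls of the AID strain also became 4 in place of 3, and higher calls of SNPC-4 over N2 at 48 h became 5 in place of 6. In each case the member that changed was smy-1, which at these settings took in the peak of the neighbouring smy-2. Apart from the AID comparison at 67 peaks, shares over all genes at the alternative settings are not given here. With all lists shortened to 67 peaks, the 3 lower calls of the AID strain went to 0, and so did the lists with a peak at all 3 cluster members, at all 3 other members, with every cluster member first, and with the order smy-1, cluster members, smy-4 and smy-6, because the lists hold fewer peaks. Higher calls of SNPC-1.1 over SNPC-1.2, 2 in all, became 1 at −log10 q of at least 2 and 0 at a fold of at least 3. At that fold, members with separate common ranks between SNPC-1.2 and SNPC-4 became 0 in place of 3, and the difference at smy-10 turned to 2.67 ranks (exact permutation p = 0.3). The cause was not tested.

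Leaving out 1 list at a time relaxes the rule of no overlap. Members separate in position then ran from 0 to 1 without snpc-1.2, from 0 to 2 without snpc-1.3 and from 3 to 5 for SNPC-1.1 over SNPC-4. Members separate in common rank ran from 1 to 4 without snpc-1.2 and from 2 to 4 without snpc-1.3. The relaxed rule applies to every gene, and the share over all genes under it is not given here. These counts are therefore not read as a result about the members. Several differences changed sign, none of them past the threshold. In bp of summit position, the ranges were −6.67 to 8.83 for smy-1 and −2.33 to 0.167 for smy-10 without snpc-1.3, and −2.83 to 1.17 for smy-6 and −0.167 to 2.5 for smy-8 without snpc-1.2. For SNPC-1.1 over SNPC-4 they were −0.333 to 6.67 for smy-10, −3.5 to 19 for smy-4 and −1.17 to 2 for smy-8. For 72 h over 48 h they were −2.67 to 0.0833 for smy-4, −1.92 to 0.25 for smy-6 and −1.75 to 0.25 for smy-8. In common rank they were −0.5 to 2.5 for smy-1 and −2 to 3 for smy-6 without snpc-1.2, and −2.08 to 1 for smy-10 between ages. Also between ages, smy-1 ran from −3.42 to −1.92 and smy-6 from −28.3 to −18.8.

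Replicate numbers were not used to pair the lists in the main tests, since same-numbered lists correlated only between −0.144 and 0.0323 in their deviations. Best correlation with the same number was seen for 3 of 3 lists without snpc-1.3. It was seen for 2 of 3 in SNPC-1.2 over N2 and SNPC-4 over N2 at 48 h. For the other comparisons checked the count was 0. In the comparisons with N2, of the AID strain and of the null strains, the replicate block left the calls of members as they were: 3 for SNPC-1.2 over N2, 5 for SNPC-4 over N2 at 72 h, 6 at 48 h, 6 for SNPC-1.1 over N2, 3 lower in the AID strain and 0 in the null strains. It was not run between ages or between subunits. For positions and ranks of the null strains, the block gave exact permutation p of 0.25 to 1, and 0.25 is the smallest it allows. Unknown depth, lists of unequal length and 3 lists a group limit the precision, and the absence of a peak is not shown to be absence of binding.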

Other observations

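Among the 6 SmY genes outside the list, the number of nearby piRNA genes and the SNPC-1.2 peaks did not go together throughout. The genes smy-11 and smy-12, at IV:14863987-14864064 and IV:14864744-14864823, have 378 and 377 piRNA genes within 50000 bp and had a SNPC-1.2 peak in 3 of 3 lists, with folds of 13.7, 9.28 and 6.17 at smy-11 and of 10.2, 8.06 and 4.90 at smy-12. In the SNPC-4 strain at 72 h the folds were 30.5, 23.7 and 31.0 at smy-11 and 18.1, 14.7 and 17.6 at smy-12. In piRNA-poor sequence, smy-2 had a SNPC-1.2 peak in 3 of 3 lists, smy-3 in 2 of 3, with folds of 4.22 and 2.62, and smy-5 in none. The gene smy-7, with 173 piRNA genes within 50000 bp, also had one in 2 of 3 lists, with folds of 3.95 and 5.02.

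The gene smy-2, 296 bp from smy-1 and annotated as a snoRNA gene, had the strongest SNPC-4 peak of the 12 SmY genes in each of the 12 SNPC-4 lists, with folds of 104 to 166. It also had a weak peak in 6 of 6 N2 lists of dataset 2, with folds of 1.93 to 3.44, and a SNPC-1.2 peak in 3 of 3 lists, with folds of 4.92, 3.29 and 4.18. No explanation was tested for any of these values.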
